A study of Mus musculus with 5 samples.

Results

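The 10 immediate early genes were followed through the deposited heart transcriptomes: Fos, Fosb, Jun, Junb, Egr1, Nr4a1, Ier2, Arc, Btg2 and Zfp36. They were taken from the table by symbol, and 10 of 10 were present among 17818 gene symbols. Immediate early genes are transcribed as the first response of a cell to a signal, without new protein synthesis, because the factors that switch them on (SRF with its ELK and MRTF partners, and CREB) are already in place and are activated by kinases. Most of their messages are short-lived, so their levels fall back soon after the signal ends. In the heart they are known to respond to stretch, adrenergic and hormonal signals, ischaemia and handling of the tissue, and most of their products are transcription factors that set the next wave of genes.

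Hearts came from male mice that had all undergone bone marrow transplantation, a model in which mutant blood cells populate a host, and were collected 12 months later. There were 2 libraries from animals labelled Tet2+/- that received oridonin, a plant diterpenoid, 2 from animals labelled Tet2+/- that received vector, and 1 from a wild-type (WT) animal that received vector. Treatment was given for 2 months per the sample characteristics, while the sample titles read 1 or 2 months, and the title number is used here as a replicate number. The labels give neither the ages of the mice nor the genotype of the host. Below, the groups are called Tet2 oridonin, Tet2 vector and WT hearts, and levels are in CPM, the reads of a gene relative to those of its whole library.

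Library totals lay between 14574823 and 15535778 counts, so that 3 counts, taken as the floor, equal 0.193 to 0.206 CPM. The Tet2 columns as deposited were blends of the 2 replicates of a group, and the values below are unblended. In the WT column as deposited 33.5% of genes gave a whole count within 0.01, and there is no replicate column to unblend it with. Whether it is a blend was not tested, and it is used as deposited and as 1 sample. No label says that replicates came from separate animals. The p-values therefore rest on the spread between replicates within the Tet2 groups, which may be technical. The WT library adds nothing to that spread, and the WT level has no replicate check. Heart muscle markers were present in every library (10 of 10, summed level 51144 CPM or more). Tet2 vector replicate 1 stood apart by its atrial muscle markers, whose summed level was 981 CPM there and 14.1 to 70.0 CPM in the other 4 libraries.

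Scaled by exon length, Jun had the highest mean level of the 10 genes, at 17.3 CPM per kilobase over the 5 libraries (12.2 to 23.0), and its range did not overlap that of any other. Ier2 followed with 10.2, Btg2 with 9.11, Junb with 7.05, Zfp36 with 6.46, Nr4a1 with 4.32, Egr1 with 3.17, Fos with 1.09 and Arc with 0.834 CPM per kilobase. From Ier2 down to Arc each gene's range over the libraries overlapped that of the next, so neighbours in this order are not resolved. Genes farther apart were: Ier2 (9.11 to 11.1) lay wholly above Junb, Zfp36 and Nr4a1 (highest 8.91, 8.96 and 8.77), and Fos and Arc (highest 1.94 and 1.12) wholly below Nr4a1 (lowest 2.17). Fosb was lowest at 0.103 CPM per kilobase, below the whole range of Arc.

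The stretches upstream of 4 of these genes are shown because they hold the response elements this class is known for. RefSeq promoters (GRCm38.p6) were matched for 7 of the 10 genes, Btg2, Fos, Fosb, Jun, Junb, Nr4a1 and Zfp36, and the 250 bases before the start were searched. Printed 5′ to 3′ on the gene's strand are chr12:85473640-85473889 (plus strand), chr15:101266596-101266845 (plus), chr1:134079156-134079405 (minus) and chr7:28379229-28379478 (minus). Capitals mark every match to TGACG, the core of the CREB site TGACGTCA, to TGACGTCA itself, which contains TGACG on both strands, to the EGR site GCGNGGGCG, to the CArG box bound by SRF, and to TATAAA. All were searched on both strands except TATAAA. For Nr4a1 and Zfp36 the RefSeq start lies inside the span of the gene given below from GENCODE, which includes longer transcripts.
Fos: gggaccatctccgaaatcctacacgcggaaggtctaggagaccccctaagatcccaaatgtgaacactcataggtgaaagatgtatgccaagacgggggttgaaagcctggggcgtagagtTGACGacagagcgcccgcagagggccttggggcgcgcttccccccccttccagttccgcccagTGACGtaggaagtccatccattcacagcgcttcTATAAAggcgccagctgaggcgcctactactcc
Nr4a1: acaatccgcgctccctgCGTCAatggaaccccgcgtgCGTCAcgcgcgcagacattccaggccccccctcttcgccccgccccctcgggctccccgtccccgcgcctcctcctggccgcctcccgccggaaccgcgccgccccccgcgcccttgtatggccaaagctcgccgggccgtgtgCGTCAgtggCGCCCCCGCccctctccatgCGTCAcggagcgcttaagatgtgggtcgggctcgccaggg
Btg2: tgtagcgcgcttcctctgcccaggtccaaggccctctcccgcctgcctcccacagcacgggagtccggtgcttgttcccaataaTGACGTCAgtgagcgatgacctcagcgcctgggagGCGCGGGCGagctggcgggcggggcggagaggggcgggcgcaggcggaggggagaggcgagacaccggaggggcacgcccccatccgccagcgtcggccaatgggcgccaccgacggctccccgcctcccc
Zfp36: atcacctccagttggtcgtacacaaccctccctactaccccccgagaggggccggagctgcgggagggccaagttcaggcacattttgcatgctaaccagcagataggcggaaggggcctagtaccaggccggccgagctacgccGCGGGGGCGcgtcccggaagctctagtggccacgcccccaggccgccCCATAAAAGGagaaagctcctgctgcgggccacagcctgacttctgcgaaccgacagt
In this window TGACG was found in 5 of the 7 genes (Btg2, Fos, Fosb, Junb and Nr4a1), against 17.8% of 32851 promoters, and GCGNGGGCG in 4 of 7 (Btg2, Fosb, Nr4a1 and Zfp36), against 4.7%. Btg2 held the full TGACGTCA (1.55% of promoters) and Zfp36 a CArG box (1.47%), 58 to 49 bases before the start. TATAAA was found in Fos (7.59%), and TGANTCA, the site of AP-1 (FOS and JUN dimers), in 0 of 7 (6.75%). These matches describe letters in a window and are no measure of binding. Bases farther upstream were not searched, so a motif not found here may lie outside the window.

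Messages of this class are also known for AU-rich elements in their 3′ UTR, which ZFP36 and related proteins bind to start decay. The nonamer TTATTTATT, a preferred ZFP36 site, was found in 2 of 10 members, Fos (chr12:85477107-85477127, plus strand, GRCm38) and Zfp36 (chr7:28376955-28376975, minus strand), against 7.79% of 20657 genes. The 2 sites are given with the nonamer in capitals.
Fos: ttcaatTTATTTATTaagatg
Zfp36: acgactTTATTTATTgtatta
The shorter ATTTA was found in 8 of 10 members, with 4 copies each in Fos and Jun, 3 each in Nr4a1 and Zfp36, 5 in Btg2, 2 each in Egr1 and Junb and 1 in Fosb, against 66.2% of genes with at least 1. Arc and Ier2 had 0 copies.

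Egr1 (ENSMUSG00000038418, chromosome 18, 34859823 to 34864984, GRCm38, plus strand) encodes a zinc finger transcription factor that binds GC-rich promoters. It was at 21.3 and 18.5 CPM in Tet2 oridonin hearts, 14.2 and 11.3 CPM in Tet2 vector hearts and 5.80 CPM in the WT heart (exact 95% interval 4.64 to 7.15 CPM from the estimated count, counting error only). All 4 Tet2 hearts were above the WT heart, and both oridonin hearts were above both vector hearts. In log2 units, Egr1 differed by 1.12 ± 0.29 (± standard error) between Tet2 vector and WT (adjusted p = 0.410 in limma). The difference was 0.65 ± 0.24 between Tet2 oridonin and Tet2 vector (adjusted p = 1.00 in limma) and 1.77 ± 0.29 between Tet2 oridonin and WT (adjusted p = 0.539 in limma). No value met the threshold, an adjusted p (false discovery rate, FDR) of 0.05. On the blended values as deposited, where replicates lie closer together, Egr1 did pass against WT, with adjusted p = 0.0114 in Tet2 vector and adjusted p = 0.0109 in Tet2 oridonin hearts (limma).

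Nr4a1 (ENSMUSG00000023034, chromosome 15, 101254269 to 101274795, plus strand) encodes an orphan nuclear receptor induced by cAMP and stress signals. Unlike Egr1 it was highest in the WT heart, with 8.82 and 7.62 CPM in Tet2 oridonin hearts, 8.30 and 20.3 CPM in Tet2 vector hearts and 30.8 CPM in the WT heart (28.1 to 33.7 CPM). All 4 Tet2 hearts were below the WT heart, while oridonin and vector hearts overlapped because the vector replicates differed 2.44-fold. Relative to WT its log2 fold change was -1.24 (standard error 0.53) in Tet2 vector and -1.90 (standard error 0.53) in Tet2 oridonin hearts, with adjusted p = 0.530 and adjusted p = 0.675 in limma. Without Tet2 vector replicate 1 the vector value was -0.60, and without replicate 2 it was -1.89. Between Tet2 oridonin and Tet2 vector hearts Nr4a1 differed by -0.66 ± 0.43 in log2 units (adjusted p = 1.00 in limma), by -1.30 without vector replicate 1 and by -0.018 without vector replicate 2. On the blended values both differences from WT passed, at adjusted p = 0.0299 and adjusted p = 0.0206 (limma).

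Among the subunits of AP-1, Fos (ENSMUSG00000021250, chromosome 12, 85473890 to 85477273, plus strand), which pairs with JUN proteins, was at 2.80 and 1.44 CPM in Tet2 oridonin hearts, 1.48 and 2.48 CPM in Tet2 vector hearts and 4.56 CPM in the WT heart. These are 41 and 21, 23 and 38, and 68 counts. The 4 Tet2 hearts lay below the WT heart, and the oridonin and vector hearts covered nearly the same range. For Fos the log2 fold change over WT was -1.24 (95% interval -2.71 to 0.24) in Tet2 vector and -1.17 (-2.64 to 0.31) in Tet2 oridonin hearts, with adjusted p = 0.561 and adjusted p = 0.816 in limma. Without oridonin replicate 2 the Tet2 oridonin value was -0.70. On the blended values the Tet2 vector value passed, at adjusted p = 0.0407 (limma).

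Its paralogue Fosb (ENSMUSG00000003545, chromosome 7, 19302696 to 19310051, minus strand) had 14 and 12 counts in Tet2 oridonin hearts, 12 and 7 in Tet2 vector hearts and 3 in the WT heart, the last at the floor. It stayed under 1 CPM in every library and was not tested. All 4 Tet2 hearts had more counts than the WT heart, the opposite order to Fos. From the summed counts, the ratio to WT was 4.45 in Tet2 oridonin (exact 95% interval 1.36 to 23.0) and 3.08 in Tet2 vector hearts (0.906 to 16.2), and the ratio of Tet2 oridonin to Tet2 vector was 1.45 (0.770 to 2.77). These intervals cover counting error only.

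Jun (ENSMUSG00000052684, chromosome 4, 95049034 to 95052222, minus strand), the partner that can also pair with itself, was at 38.8 and 50.2 CPM in Tet2 oridonin hearts, 47.2 and 73.4 CPM in Tet2 vector hearts and 65.6 CPM in the WT heart. Junb (ENSMUSG00000052837, chromosome 8, 84974484 to 84978718, minus strand), a weaker activator that can restrain JUN, was at 20.5 and 15.0 CPM, 11.5 and 19.3 CPM and 14.9 CPM in the same groups. For both genes the Tet2 vector replicates fell on either side of the WT value. Between Tet2 oridonin and Tet2 vector hearts the log2 fold change was -0.42 (95% interval -1.08 to 0.24) for Jun and 0.23 (-0.55 to 1.02) for Junb, both with adjusted p = 1.00 in limma. Jun was at -0.73 without vector replicate 1, -0.10 without vector replicate 2 and -0.23 without oridonin replicate 1. Junb was at -0.14 without vector replicate 1, 0.60 without vector replicate 2, 0.0043 when oridonin replicate 1 was left out and 0.46 when oridonin replicate 2 was. Junb shares 351 bases with Prdx2 on the opposite strand, which was at 268 to 340 CPM, and Jun 689 bases with the antisense gene Junos, at 0.479 to 1.22 CPM. The counting is not stated to use strand, so reads there cannot be told apart, and the same holds for 1274 bases of Zfp36 and the antisense gene Gm44710.

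Arc (ENSMUSG00000022602, chromosome 15, 74669083 to 74672570, minus strand), which encodes a capsid-forming protein best known from neuronal synapses, was at 3.42 and 3.22 CPM in Tet2 oridonin hearts, 1.80 and 1.76 CPM in Tet2 vector hearts and 2.55 CPM in the WT heart. These are 50 and 47, 28 and 27, and 38 counts. The replicates of a group were close together (ratios of 1.06 and 1.02), both oridonin hearts were above the WT heart and both vector hearts below it. Between Tet2 oridonin and Tet2 vector hearts Arc differed by 0.89 ± 0.35 in log2 units (adjusted p = 1.00 and unadjusted p = 0.0433 in limma). The WT count carries a counting interval of 1.79 to 3.48 CPM, which holds all of the Tet2 values but those of vector replicate 2.

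Ier2 (ENSMUSG00000053560, chromosome 8, 84661331 to 84662852, minus strand), a nuclear protein of growth factor responses, was the steadiest of the 10. It was at 16.7 and 14.1 CPM in Tet2 oridonin hearts, 16.0 and 16.8 CPM in Tet2 vector hearts and 13.9 CPM in the WT heart. Its highest library was 1.21-fold above its lowest, where that ratio was 1.69 to 4.79 in the other 9 genes. The 95% interval of its log2 fold change was -0.40 to 0.89 for Tet2 vector over WT and -0.62 to 0.43 for Tet2 oridonin over Tet2 vector.

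Btg2 and Zfp36 encode proteins that act on messenger RNA. Btg2 (ENSMUSG00000020423, chromosome 1, 134075170 to 134079120, minus strand), an antiproliferative protein and p53 target that promotes deadenylation, was at 29.0 and 25.6 CPM in Tet2 oridonin hearts, 17.1 and 24.5 CPM in Tet2 vector hearts and 28.7 CPM in the WT heart. The oridonin hearts lay on either side of the WT value, and both vector hearts were below both of these groups. Zfp36 (ENSMUSG00000044786, chromosome 7, 28376784 to 28380253, minus strand), the decay factor tristetraprolin, was at 28.2 and 18.0 CPM in Tet2 oridonin hearts, 13.0 and 21.8 CPM in Tet2 vector hearts and 31.1 CPM in the WT heart. All 4 Tet2 hearts were below the WT heart, with log2 differences of -0.88 ± 0.42 in Tet2 vector (adjusted p = 0.552 in limma) and -0.46 ± 0.42 in Tet2 oridonin hearts (adjusted p = 0.869 in limma). The Tet2 vector difference was -0.51 without vector replicate 1 and -1.26 without replicate 2, and the Tet2 oridonin difference -0.79 without oridonin replicate 1 and -0.14 without replicate 2. On the blended values the Tet2 vector difference passed, at adjusted p = 0.0379 (limma).

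**Figure D1:**
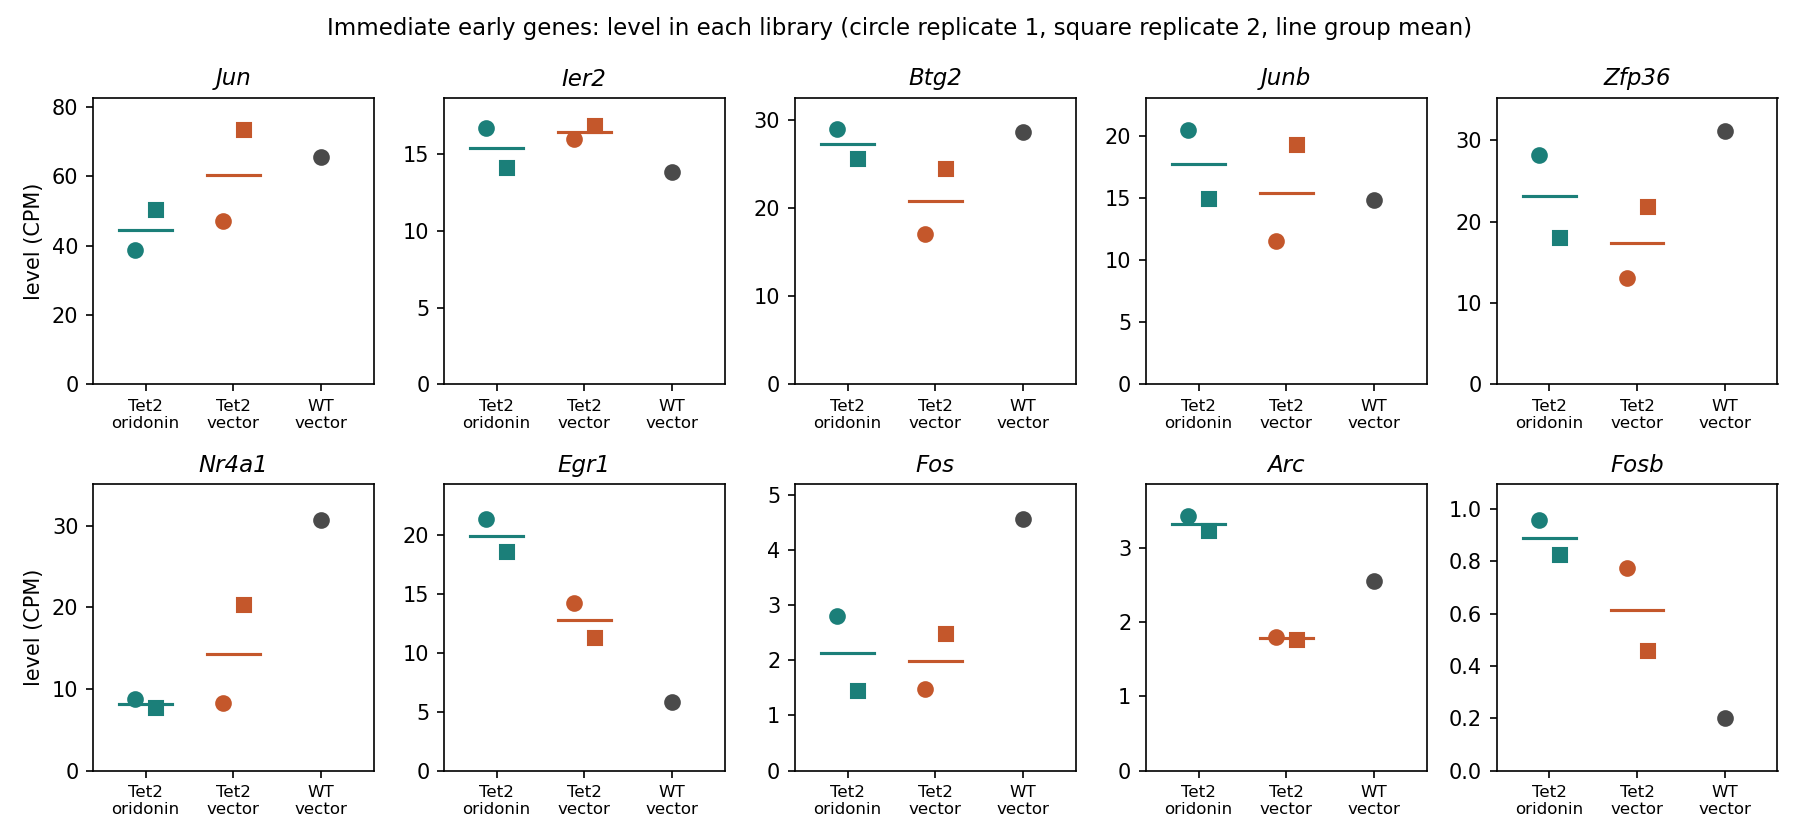
Level of each of the 10 genes in CPM (linear axes from 0) in Tet2 oridonin, Tet2 vector and WT hearts; points are libraries and lines the means of 2 replicates. Egr1 and Fosb were lowest in the WT heart, where Fosb was at the floor of 3 counts. Nr4a1, Fos and Zfp36 were highest there, and Arc separated both oridonin hearts (3.42 and 3.22 CPM) from both vector hearts (1.80 and 1.76 CPM).

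The first comparison asked how hearts of the mice labelled Tet2+/- differed from the WT heart under vector. Egr1, Ier2 and Fosb were above the WT value in both Tet2 vector hearts, and Fos, Nr4a1, Arc, Btg2 and Zfp36 were below it in both. That is 3 members higher (2 of the 9 tested), where 35.4% of the 12734 genes tested were, and 5 lower, where 32.3% were. Leaving out a vector replicate sets 1 library against 1, so a gene then counts as higher or lower by construction. Without Tet2 vector replicate 1 the counts were 5 and 5, where 46.2% and 53.8% of all genes were higher and lower. Without replicate 2 they were 3 and 7, where 56.9% and 43.1% were. With limma 0 of the 9 members tested passed the FDR, as did 0 of all genes (0%), and voom on the recovered counts also gave 0. At an unadjusted p under 0.05 there was 1 member, Egr1, which was higher, where 5.06% of all genes were higher and 4.53% lower. The median log2 fold change over the 9 was -0.49, and it was 0.00 over all genes. It was -0.23 without Tet2 vector replicate 1 and -0.49 without replicate 2. In a bulk library fewer cells of a type and less RNA per cell cannot be told apart.

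Oridonin was then set against vector within the Tet2 hearts. Arc, Egr1, Btg2 and Fosb were higher in both oridonin hearts than in either vector heart, by 1.85-fold for Arc, 1.57-fold for Egr1 and 1.33-fold for Btg2. The log2 fold change of Btg2 was 0.41, 0.15 without vector replicate 1 and 0.67 without vector replicate 2. These are 4 of 10 members, where 8.33% of all genes were higher without overlap, and 3 of the 4 are among the 9 tested. Members lower without overlap numbered 0, where 17.8% of all genes were. Limma again called 0 of 9 members and 0% of all genes, and voom called 0 members. Arc and Egr1 had an unadjusted p under 0.05 in limma (0.0433 and 0.0339), a level that 0.668% of all genes reached on the higher side and 1.93% on the lower side. The median log2 fold change over the 9 was 0.23 and over all genes -0.05. That median was 0.48 when vector replicate 2 was left out, 0.0043 when oridonin replicate 1 was, and 0.50 when oridonin replicate 2 was. Without Tet2 vector replicate 1, the library with atrial markers, it was -0.13, and 3 members, Jun, Nr4a1 and Ier2, were lower in both oridonin hearts than in the remaining vector heart while the same 4 were higher, against 35.0% and 36.3% of all genes. Without Tet2 oridonin replicate 1 the counts higher and lower were 4 and 3, against 22.8% and 29.8%, without oridonin replicate 2 they were 7 and 1 (16.9% and 38.3%), and without vector replicate 2 they were 6 and 0 (21.8% and 51.5%).

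The third comparison set Tet2 oridonin hearts against the WT heart, and it shares the WT library with the first and the oridonin libraries with the second. Egr1, Fosb, Arc, Ier2 and Junb were higher in both oridonin hearts (5 members, 4 of them tested, where 31.9% of all genes were), and Nr4a1, Fos, Jun and Zfp36 were lower in both (4 members, where 41.7% were). With an oridonin replicate left out, 1 library again stands against 1 and a gene counts as higher or lower by construction. Without oridonin replicate 1 the counts were 5 and 5 (48.8% and 51.2% of all genes), and without oridonin replicate 2 they were 6 and 4 (41.4% and 58.6%). For Ier2 and Junb the lower oridonin heart (14.1 and 15.0 CPM) lay within the counting interval of the WT value (12.0 to 15.9 and 13.0 to 16.9 CPM). Egr1 was 3.42-fold above WT and Nr4a1 0.267 times WT. Limma called 0 of 9 members and 0% of all genes, and voom called 0 members. Egr1 (unadjusted p = 0.000836 in limma) and Nr4a1 (unadjusted p = 0.0109 in limma) were the 2 members under 0.05, a level that 2.69% of all genes reached on the higher and 3.53% on the lower side. The median log2 fold change was -0.08 over the 9 members and -0.06 over all genes. It was -0.17 without oridonin replicate 1 and 0.014 without oridonin replicate 2.

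**Figure D2:**
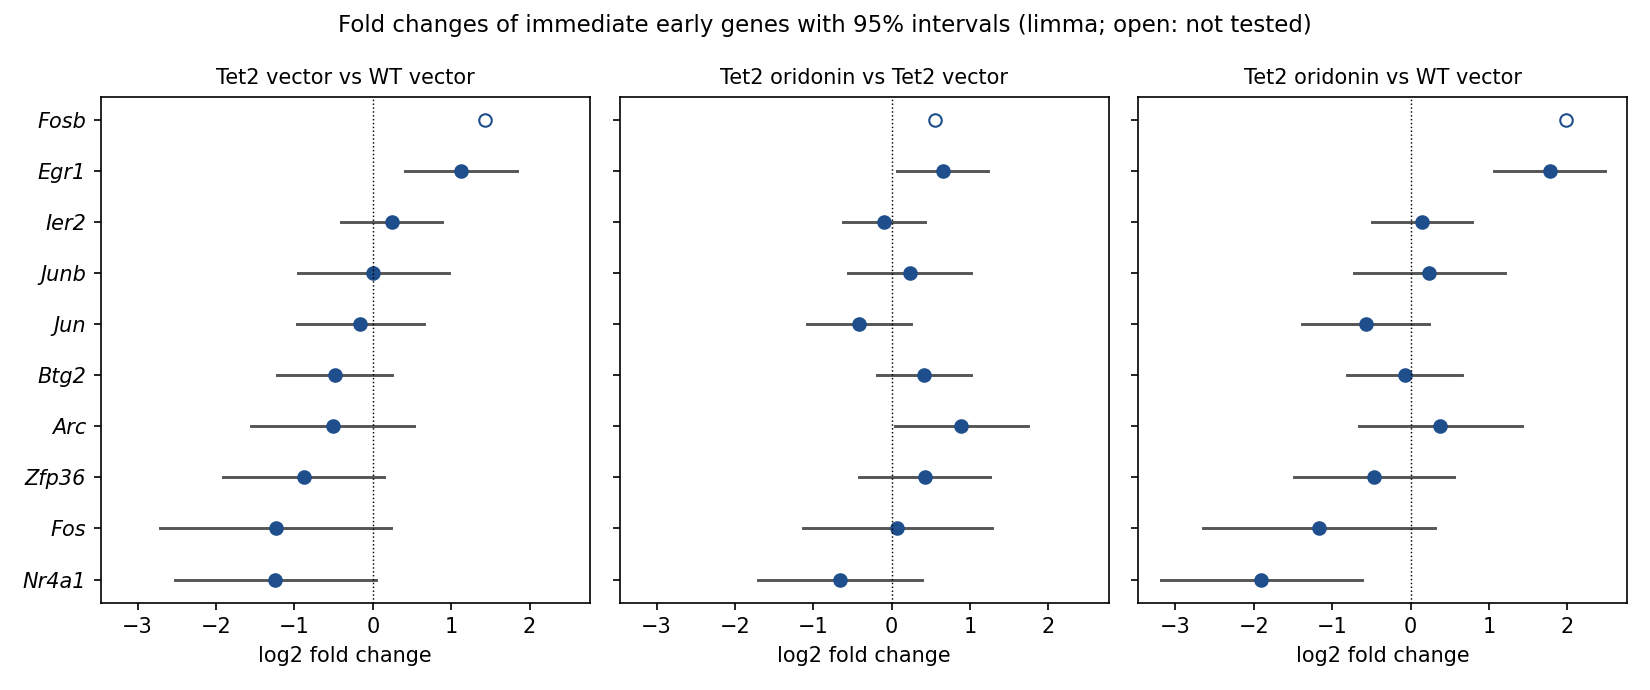
Log2 fold change of each gene (horizontal axis) in the 3 comparisons, with 95% intervals from limma; the open point for Fosb is a difference of group means with no test. Intervals of Egr1 lie above 0 in all 3 panels and those of most other genes span 0, and no gene passed the FDR of 0.05 over all genes.

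Taking the 4 Tet2 hearts together, 3 members were above WT in all 4 libraries (Egr1, Fosb and Ier2), 3 were below it in all 4 (Fos, Nr4a1 and Zfp36) and 4 were neither. Of all genes tested, 24.1% were above and 27.2% below in this way. In the Tet2 vector hearts 7 of 10 members were lower in replicate 1 than in replicate 2, with a median log2 difference of -0.58, where 37.8% of all genes were lower and the median was 0.16. In the Tet2 oridonin hearts 9 of 10 were higher in replicate 1, Jun being the exception, with a median log2 difference of 0.21, where 40.3% of all genes were higher and the median was -0.08. Fos, Junb, Zfp36 and Nr4a1 thus had a higher replicate 1.67, 1.68, 1.68 and 2.44 times the lower one in the vector hearts. In the oridonin hearts those ratios were 1.95, 1.37, 1.57 and 1.16.

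**Figure D3:**
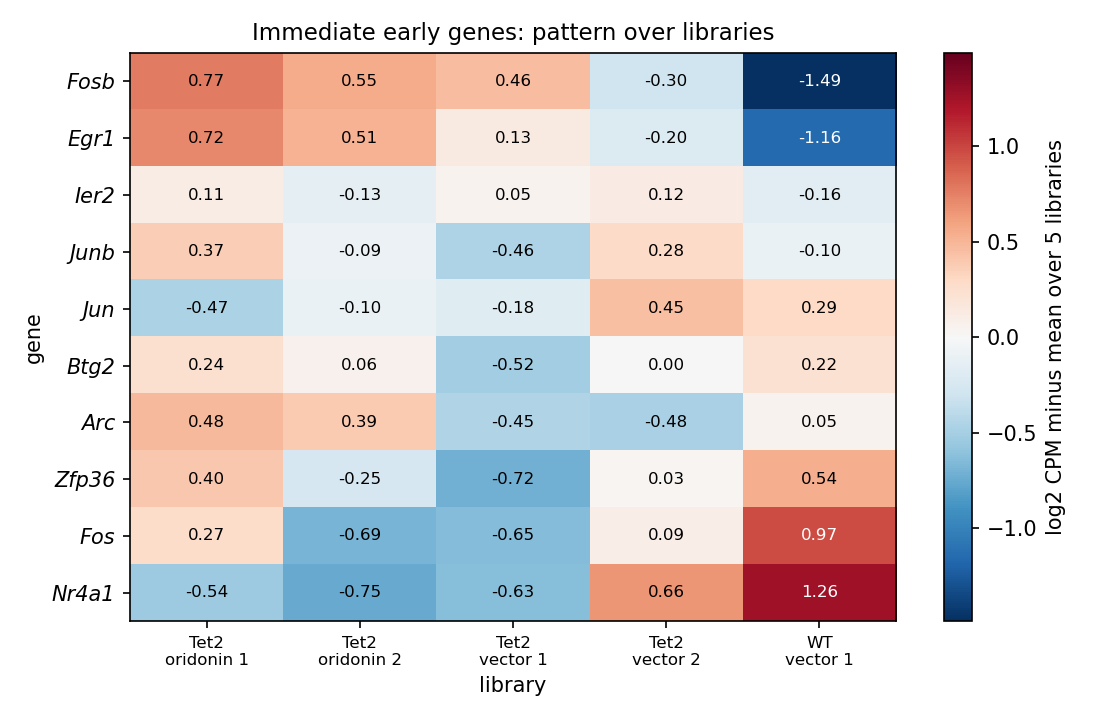
Log2 CPM of each gene minus its mean over the 5 libraries (colour and printed value), with libraries in columns. Fosb and Egr1 run opposite to Fos and Nr4a1 in the WT library (-1.49 and -1.16 against 0.97 and 1.26), where Fosb rests on 3 counts, the floor. Tet2 vector replicate 1 is the lowest library for Junb, Btg2 and Zfp36. It is also low for Arc, Fos and Nr4a1, for which another Tet2 library is lower (vector replicate 2 for Arc, oridonin replicate 2 for Fos and Nr4a1).

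The mean pattern of the 10 genes over the 5 libraries was compared with that of every other gene of at least 5 CPM, using the root mean square difference of centred log2 values. Closest among 9837 genes were Slc41a3 (0.0239), Ctif (0.0372), Eef1a2 (0.0405), Tpst2 (0.0408) and Ech1 (0.0425), against a median of 0.300 over all of them. Slc41a3, for example, was at 48.5 and 40.8 CPM in Tet2 oridonin hearts, 34.9 and 44.9 CPM in Tet2 vector hearts and 42.9 CPM in the WT heart. The members themselves were mostly farther from their own mean: Btg2 (0.138), Junb (0.153) and Ier2 (0.195) lay near it, and 7 of 10 lay beyond 0.300, up to 0.773 for Nr4a1 and 0.804 for Fosb.

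Relatives of the members were read from lists of the same families. Of the other EGR and NR4A genes and the NAB corepressors of EGR proteins, 5 of 6 in the table were tested and 0 passed in any comparison in either direction. Nr4a3, a close relative of Nr4a1, was at 2.19 and 3.02 CPM in Tet2 oridonin hearts, 2.51 and 4.37 CPM in Tet2 vector hearts and 9.16 CPM in the WT heart. Nr4a2 was at 1.16 and 0.686 CPM, 0.386 and 0.783 CPM and 1.52 CPM in the same groups (17 and 10, 6 and 12, and 23 counts). In all 4 Tet2 hearts these genes were below WT, as Nr4a1 was. Of all genes tested, 27.2% were below and 24.1% above WT in all 4. The log2 differences between Tet2 vector and WT were -1.46 for Nr4a3 (adjusted p = 0.473 in limma) and -1.41 for Nr4a2 (adjusted p = 0.614 in limma). Egr3 did not share the position of Egr1, with 14 and 17 counts in Tet2 oridonin hearts, 17 and 21 in Tet2 vector hearts and 15 in the WT heart. Egr2, too low to be tested, was above WT in all 4 Tet2 hearts as Egr1 was. It had 5 and 15 counts, 11 and 10 counts and 3 counts in the same groups, the last at the floor. Nab2, which holds EGR1 in check, was at 5.81 and 5.15 CPM in Tet2 oridonin hearts, 8.11 and 8.74 CPM in Tet2 vector hearts and 8.04 CPM in the WT heart (-0.62 in log2 between oridonin and vector, adjusted p = 1.00 in limma).

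Of the other AP-1, ATF and MAF genes, 9 of 11 were tested and 0 passed in any comparison. In Tet2 vector hearts 8 of the 9 had a log2 fold change over WT below 0, with a median of -0.51, and the median over all genes was 0.00. The small MAF genes Mafk and Mafg, whose proteins lack an activation domain, were at 31.6 and 46.2 CPM and at 31.3 and 27.0 CPM in Tet2 vector hearts, against 70.7 and 50.9 CPM in the WT heart. Fosl2 was at 16.8 and 28.5 CPM in Tet2 oridonin hearts, 27.4 and 20.3 CPM in Tet2 vector hearts and 39.8 CPM in the WT heart. Fosl1 was the exception, above WT in all 4 Tet2 hearts (as 24.1% of all genes tested were), at 3.35 and 4.53 CPM, 2.64 and 2.15 CPM and 1.93 CPM in the same groups. For Fosl1 these are 49 and 66, 41 and 33, and 29 counts, so the vector hearts were few counts from WT.

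MAP kinase phosphatases and other feedback inhibitors, which are induced by the same pathway and switch it off, were tested for 13 of 14 genes, and 0 passed in any comparison. In Tet2 vector over WT 4 of the 13 had a log2 fold change above 0 and 9 below (median -0.24, and 0.00 over all genes). In Tet2 oridonin over WT 4 were also above 0 and 9 below (median -0.25, and -0.06 over all genes). Dusp4, a nuclear phosphatase of ERK, was at 0.684 and 0.961 CPM in Tet2 oridonin hearts, 1.03 and 1.24 CPM in Tet2 vector hearts and 6.89 CPM in the WT heart (-2.57 ± 0.57 in log2 between Tet2 vector and WT, adjusted p = 0.358 in limma). Dusp10, which acts on JNK and p38, was at 7.93 and 7.82 CPM, 14.0 and 7.50 CPM and 2.85 CPM in the same groups (1.83 ± 0.43 in log2, adjusted p = 0.366 in limma). Dusp6, the cytoplasmic ERK phosphatase, was at 27.6 and 24.8 CPM, 23.6 and 19.2 CPM and 13.2 CPM. Dusp7 was at 65.5 and 64.5 CPM, 48.7 and 47.3 CPM and 77.5 CPM, and Dusp8 at 21.5 and 29.4 CPM, 19.5 and 22.6 CPM and 39.6 CPM. At an unadjusted p under 0.05 in limma, 2 genes of the list were higher and 3 lower in Tet2 vector over WT. Each of these genes kept its side of WT in all 4 Tet2 hearts. Of all genes tested, 24.1% were above and 27.2% below WT in this way.

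**Figure D4:**
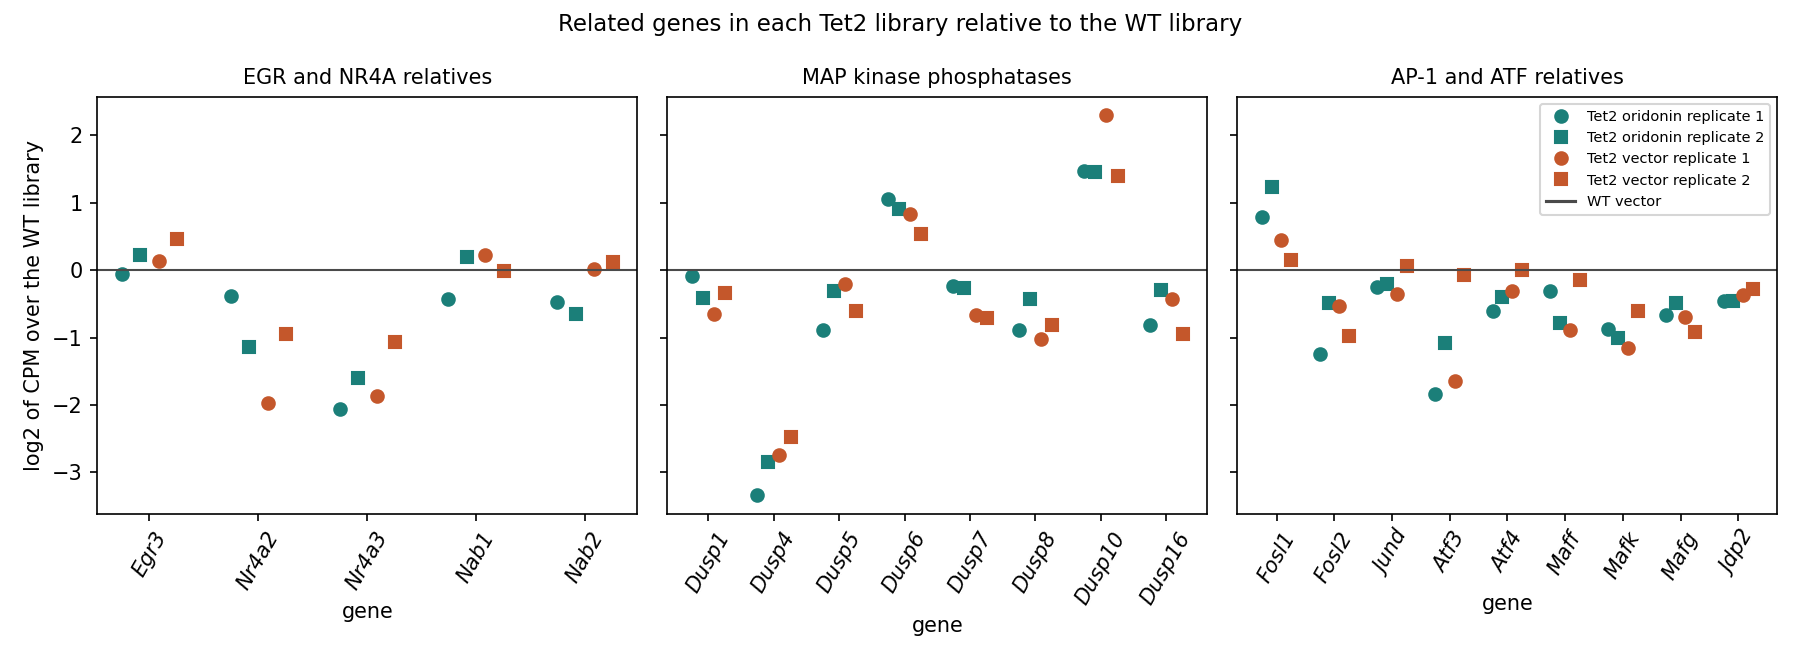
Log2 ratio of CPM to the WT library in each Tet2 library for relatives of the members in 3 lists, with the WT library as the line at 0. Nr4a2, Nr4a3, Dusp4, Dusp7 and Dusp8 lie below the line in all 4 Tet2 libraries, and Dusp6, Dusp10 and Fosl1 above it. Of all genes tested, 27.2% lay below and 24.1% above WT in all 4.

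Among 41 other primary response genes tested, 0 passed in any comparison, and the median log2 fold change was 0.02 for Tet2 vector over WT, -0.15 for Tet2 oridonin over Tet2 vector and -0.17 for Tet2 oridonin over WT. Ccn2, a matricellular gene also induced by mechanical signals, was at 35.7 and 25.2 CPM in Tet2 oridonin hearts, 57.5 and 92.6 CPM in Tet2 vector hearts and 151 CPM in the WT heart, and Errfi1, an inhibitor of the EGF receptor, at 19.4 and 14.1 CPM, 33.1 and 31.2 CPM and 48.3 CPM. These genes stood in the order that Nr4a1 took by group mean, with the oridonin hearts lowest and the WT heart highest (-2.33 and -1.55 in log2 between Tet2 oridonin and WT, adjusted p = 0.539 and adjusted p = 0.546 in limma). Of 29 upstream kinases and transcription factors tested 0 passed, and Srf was at 84.6 and 90.3 CPM, 95.8 and 99.5 CPM and 90.6 CPM in the 3 groups. Map2k6, a kinase of p38, was at 6.22 and 5.76 CPM in Tet2 oridonin hearts, 7.47 and 4.50 CPM in Tet2 vector hearts and 1.25 CPM in the WT heart (2.18 in log2 between Tet2 vector and WT, adjusted p = 0.324 in limma).

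Of 14 genes whose AU-rich messages ZFP36 is known to bind, 7 were high enough to be tested and 0 passed. In Tet2 vector over WT 6 of the 7 had a log2 fold change above 0 and 1 below (median 0.55, and 0.00 over all genes). In Tet2 oridonin over WT 4 were above 0 and 3 below (median 0.16, and -0.06 over all genes). The chemokine genes Cxcl1 and Ccl2 had 18 and 16, and 25 and 50 counts in Tet2 oridonin hearts, 22 and 22, and 22 and 39 counts in Tet2 vector hearts and 6 and 9 counts in the WT heart. Ccl7 had 48 and 74, 42 and 8, and 0 counts. Ier3 was at 36.4 and 41.4 CPM in Tet2 oridonin hearts, 43.2 and 44.8 CPM in Tet2 vector hearts and 44.1 CPM in the WT heart. Vegfa was at 92.8 and 172 CPM, 161 and 150 CPM and 148 CPM in the same groups. Tnf, Il6, Il10, Cxcl2, Ccl3, Ccl4 and Il1b were below the filter.

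Several other measures differed between the same libraries. Fibroblast markers (7 of 7 in the table) summed to 764 and 802 CPM in Tet2 oridonin hearts, 1388 and 1471 CPM in Tet2 vector hearts and 911 CPM in the WT heart. Macrophage markers (8 of 8) summed to 258 and 242 CPM, 362 and 256 CPM and 205 CPM, endothelial markers (7 of 7) to 1632 and 1651 CPM, 1358 and 1555 CPM and 1512 CPM, and smooth muscle and pericyte markers (6 of 6) to 1004 and 823 CPM, 1371 and 1029 CPM and 1230 CPM. Red cell markers (4 of 5 in the table) ranged from 147 to 387 CPM and neutrophil markers (3 of 4) from 2.32 to 11.9 CPM. Fat cell markers (5 of 5) ranged from 0.410 to 21.2 CPM and nerve and glia markers (5 of 5) from 5.98 to 18.9 CPM. Both were highest in Tet2 vector replicate 1, the library with atrial markers, as were the macrophage and the smooth muscle and pericyte sums. No marker found in the table was at 0 in every library. The share of counts from the mitochondrial genome was 30.2% and 28.2% in Tet2 oridonin, 26.8% and 29.7% in Tet2 vector and 23.6% in WT libraries. The part of these differences in the levels of the immediate early genes was not tested.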

How the data were processed

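Heart mRNA was selected with poly-T beads and prepared with a NEBNext Ultra RNA kit, per the labels' protocols. The submitters' processing notes name the build mm10. No source used here names the aligner, counting tool, strand setting or annotation. The authors deposited log2 values for 17818 symbols in 5 columns. From the values, these are log2 CPM computed after 0.5 is added to each count, and a Tet2 column weights its own library by 0.75 and its fellow replicate by 0.25. With the blend undone, 99.92% to 99.94% of genes gave a whole count within 0.01, against 9.06% to 10.4% before. The WT column was used as deposited, so its counts are estimates.

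Limma 3.58.1 (trend, robust) in R 4.3.3 was fitted to the unblended log2 values of all 5 libraries, with group as the only term. There were 2 residual degrees of freedom, and the WT library was taken to vary like the Tet2 libraries. The filter, 1 CPM or more in 2 or more libraries, left 12734 genes, among them 9 of the 10 members. P-values were adjusted by Benjamini-Hochberg over these genes. The script was tested on simulated data. Alternatives were voom, the blended values, 2 other scalings, no filter, another pseudocount, left-out libraries, only the groups compared and a replicate block. Members, lists and tests were chosen with earlier results of these data known. All members were named, up to 4 genes of smallest unadjusted p per list and comparison, and the 5 genes of nearest pattern. The untested cytokine genes, Egr2 and the overlapping genes were named outside that rule, after their values were seen. Intervals on counts cover counting error only. Gene positions and transcripts are from GENCODE vM21 (GRCm38, the assembly of mm10).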

Additional observations from a re-analysis of the deposited data

How the results depend on the processing

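No immediate early gene was called in any comparison by limma on unblended values, by voom, under 2 other scalings, without the filter, with log2 of CPM plus 1, with any Tet2 library left out, in fits of only the groups compared or with the replicate block (0 members called under each). On the blended values as deposited, 4 members were called for Tet2 vector over WT and 2 for Tet2 oridonin over WT; blending brings replicates closer together by construction. Labels give the replicate numbers no shared animal or batch, and deviations of same-numbered Tet2 libraries from their group means correlated at -0.296 across genes. With the numbers crossed as a block, chosen after the data were seen, 2 members were called in each comparison with WT. Over all genes, the calls for Tet2 vector over WT, Tet2 oridonin over Tet2 vector and Tet2 oridonin over WT were 0, 0 and 0 in the reported fit, 2312, 76 and 996 on blended values, 10, 9 and 6 with the replicate block, 432, 44 and 184 with the crossed block, 103, 0 and 1 in fits of only the groups compared, and 2 to 107, 3 to 32 and 0 to 24 with a library left out. The median log2 fold change of Tet2 oridonin over Tet2 vector lay between -0.13 and 0.50 with 1 library left out, against 0.23. For single genes the sign turned in these cases, and the cause was not tested. Junb in Tet2 vector over WT was 0.0057 as reported, -0.015 with median-of-ratios scaling, -0.066 with the replicate block, -0.29 with the crossed block and -0.37 to 0.38 with a library left out, and Jun there was -0.47 to 0.16. In Tet2 oridonin over Tet2 vector, Fos was -0.40 to 0.54, Junb -0.14 to 0.60 and Ier2 -0.22 to 0.023 with a library left out. In Tet2 oridonin over WT, Btg2 was 0.035 with mitochondrial genes left out of the total and -0.17 to 0.014 with a library left out, and Junb was -0.062 with the crossed block. Leaving out mitochondrial genes moved the median of all genes by 0.11 in that comparison. Levels of Fosb, Fos and Arc rest on 3 to 68 counts a library.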

Other observations

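Levels are given here for gene groups that respond to heat and handling, hormones or time of day, of which no gene passed the FDR. Of 10 cytosolic heat shock genes, 0 passed in any comparison. In Tet2 oridonin over Tet2 vector 4 had a log2 fold change above 0 and 6 below (median -0.13, and -0.05 over all genes). In Tet2 oridonin over WT 3 were above 0 and 7 below (median -0.46, and -0.06 over all genes). The stress-induced chaperone genes Hspa1a and Hspa1b, near-identical copies whose separate values are uncertain, were lowest in the oridonin hearts and highest in the WT heart. Hspa1a had 11 and 18 counts in Tet2 oridonin hearts, 53 and 66 counts in Tet2 vector hearts and 125 counts in the WT heart. Hspa1b had 13 and 29, 45 and 79, and 119 counts in the same groups. In log2 units Hspa1a differed by -1.95 ± 0.41 (± standard error) between Tet2 oridonin and Tet2 vector (adjusted p = 1.00 in limma) and by -3.06 ± 0.50 between Tet2 oridonin and WT (adjusted p = 0.539 in limma).

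Of 10 glucocorticoid-induced genes 0 passed. In Tet2 vector hearts 9 of 10 had a log2 fold change over WT below 0, with a median of -0.66, and the median over all genes was 0.00. Of the 10, 3 (Sgk1, Per1 and Errfi1) are also in the list of primary response genes. Fkbp5, a chaperone of the receptor, was at 25.1 and 25.2 CPM in Tet2 oridonin hearts, 26.8 and 21.8 CPM in Tet2 vector hearts and 77.1 CPM in the WT heart. Of 14 clock genes 0 passed. Dbp, a clock output gene, was at 123 and 95.0 CPM, 85.5 and 98.9 CPM and 37.0 CPM in these groups, and Bmal1, which peaks at the opposite phase, at 2.53 and 1.51 CPM, 1.29 and 3.72 CPM and 7.55 CPM. The labels give no hour of tissue collection. Whether time of day or hormone state has a part in the levels of the immediate early genes was not tested.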
